A study of Mus musculus with 20 samples.

Results

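Lgals3, Ctss, C1qa, C1qb and Cd68 are 5 mouse genes known for their strong expression in macrophages, the phagocytes of tissue. They were chosen by name: every probe set (a group of array probes for 1 transcript) whose platform symbol is one of these names was taken, which gave 7 probe sets. C1qb has 3 probe sets and the other genes 1 each. They are 5 of 6603 genes with a probe set in the deposited table.

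The arrays hold RNA of whole muscle from female C57BL/6 mice aged 14 weeks, in 5 groups of 4 arrays. SOD1 mice carry a mutant human SOD transgene (SOD1G93A), a model of amyotrophic lateral sclerosis, and were at a symptomatic stage. Their gastrocnemius, a calf muscle, and their triceps, a muscle of the fore limb, were each read on 4 arrays, as were those of non-transgenic (NTg) mice. The fifth group is gastrocnemius of mice whose sciatic nerve was crushed with forceps for 30 s at 12 weeks, taken 2 weeks later and called crush here. The sources used here give neither the genotype of the crushed mice nor the promoter of the transgene, and no sham-operated group was analysed. The NTg mice therefore served as the controls of both SOD1 and crush. The titles call the replicates biological, but they do not say which mouse a replicate number stands for.

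All values are log2 MAS5 signals, an expression measure computed for each probe set from its probes, so that a difference of 1 is a doubling. Array medians lay between 6.61 and 6.76. Pearson's r across probe sets between arrays of 1 group ranged from 0.916 to 0.973. Crush replicate 4 stood apart, with a mean r of 0.917 to the rest of its group against 0.939 to 0.972 for the other 19 arrays, so results that it moves are also given without it. NTg triceps replicate 4 is described as gastrocnemius in 1 label and as triceps in its title and source name, and the title was followed. All 12 markers of skeletal muscle fibres were measured. Tnnt3, the fast troponin T, lay between 11.6 and 13.3 over the 20 arrays and Tcap, a protein of the sarcomere's Z disc, between 11.6 and 12.6, while Ckm, the muscle creatine kinase, went down to 7.27 and Tnnc2, the fast troponin C, to 8.52 on their lowest arrays.

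Macrophages take up dead cells and debris, digest them in lysosomes and present fragments of the digested proteins to T cells. Lgals3 encodes galectin-3, a lectin that binds galactose-bearing sugars and is abundant in activated macrophages. Ctss encodes cathepsin S, a lysosomal protease that trims the invariant chain from class II molecules before antigen is loaded. Cd68 encodes a heavily glycosylated protein of the lysosomal membrane that is widely used to stain macrophages. C1qa and C1qb encode subunits of C1q, the molecule that binds immune complexes and dying cells and starts the classical complement pathway, and macrophages are its main source in most tissues. C1q genes C1qb, C1qc and C1qa lie next to each other in this order on chromosome 4.

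The stretches just before the start sites are shown because the genes share expression in macrophages, whose lineage factor PU.1 binds GAGGAAGT and related letters. RefSeq promoters (GRCm38.p6) were found for 4 of the 5 genes. Each stretch is the 160 bases before the start, read 5′ to 3′ on the gene's strand, and that of Ctss runs 10 bases past it. Capitals mark matches to 1 of 3 motifs searched on both strands, which do not overlap here: PU.1 (GAGGAAGT), the E-box bound by regulators of lysosomal genes (CACGTG), and AP-1 (TGANTCA). They lie on the forward strand at chr14:47373700-47373859 (Lgals3) and chr3:95526626-95526795 (Ctss), and on the reverse strand at chr4:136886201-136886360 (C1qb) and chr11:69666171-69666330 (Cd68).
Lgals3: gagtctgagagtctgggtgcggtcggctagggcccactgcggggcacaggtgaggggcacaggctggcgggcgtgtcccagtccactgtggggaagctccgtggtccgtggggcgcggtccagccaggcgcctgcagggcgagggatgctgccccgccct
Ctss: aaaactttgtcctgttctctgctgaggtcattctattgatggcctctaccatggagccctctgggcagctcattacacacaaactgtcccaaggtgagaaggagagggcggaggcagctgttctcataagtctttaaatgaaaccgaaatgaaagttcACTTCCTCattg
C1qb: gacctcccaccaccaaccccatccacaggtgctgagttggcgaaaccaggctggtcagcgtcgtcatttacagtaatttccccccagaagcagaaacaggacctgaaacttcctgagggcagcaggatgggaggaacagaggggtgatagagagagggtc
Cd68: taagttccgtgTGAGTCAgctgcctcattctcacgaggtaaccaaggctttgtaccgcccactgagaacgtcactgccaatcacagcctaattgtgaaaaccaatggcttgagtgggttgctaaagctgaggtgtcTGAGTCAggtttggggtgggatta
In the whole windows of 300 bases, the PU.1 letters were found in 1 of the 4 genes, Ctss, as the reverse complement with its first base at position -2 from the start, counting the last base before the start as -1. They were found in 3.2% of all 32851 RefSeq promoters. The AP-1 letters were found in Cd68 only among these genes, at positions -149 and -24, and in 7.81% of all promoters. The E-box was found in 0 of the 4 and in 7.15% of all. The stretch of Lgals3 had a GC content of 73.1%, against 46.5% for Ctss, 56.2% for C1qb and 50% for Cd68. A match of letters describes the window and does not show that a factor binds there.

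SOD1 gastrocnemius had the highest mean of the 5 groups for each of the 5 genes, and NTg gastrocnemius the lowest for all but Lgals3, which was lowest in NTg triceps. For Lgals3 the means fell from SOD1 gastrocnemius (8.27 ± 0.38, SD, n = 4 here and below) through SOD1 triceps (7.51 ± 0.76), crush (6.92 ± 1.18) and NTg gastrocnemius (5.63 ± 0.80) to NTg triceps (5.20 ± 0.64). With all arrays, only the step from crush to NTg gastrocnemius exceeded the larger SD of the groups it separates. Without crush replicate 4 the crush mean was 6.33 ± 0.14 (SD, n = 3). That step was then 0.70 and did not exceed the larger SD, while the step from SOD1 triceps to crush did. For Ctss the order was SOD1 gastrocnemius (7.49 ± 0.44), SOD1 triceps (7.13 ± 0.67), NTg triceps (6.70 ± 0.47), crush (6.64 ± 0.42) and NTg gastrocnemius (6.28 ± 0.32), and no step between neighbours exceeded the spread.

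The C1q genes had another order, with triceps of both genotypes near the top. C1qb read 7.37 ± 0.21 in SOD1 gastrocnemius, 7.28 ± 0.15 in SOD1 triceps, 7.18 ± 0.23 in NTg triceps, 6.80 ± 0.20 in crush and 6.44 ± 0.29 in NTg gastrocnemius. The steps from NTg triceps to crush and from crush to NTg gastrocnemius exceeded the spread, and the 3 highest groups did not differ beyond it. C1qa read 7.06 ± 0.099 in SOD1 gastrocnemius, 6.88 ± 0.63 in NTg triceps, 6.87 ± 0.55 in SOD1 triceps, 6.23 ± 0.47 in crush and 5.20 ± 1.55 in NTg gastrocnemius. Only its step from SOD1 triceps to crush exceeded the spread. Cd68 was dim, with a mean of 5.07 over all arrays, above only 13% of probe sets, and its means ran from 4.65 ± 0.16 in NTg gastrocnemius to 5.31 ± 0.37 in SOD1 gastrocnemius with no step beyond the spread. Without crush replicate 4 the Cd68 step from crush (4.92 ± 0.18, SD, n = 3) to NTg gastrocnemius, 0.27, was beyond the spread. With all arrays kept, those of neighbouring groups in each gene's order overlapped.

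**Figure D1:**
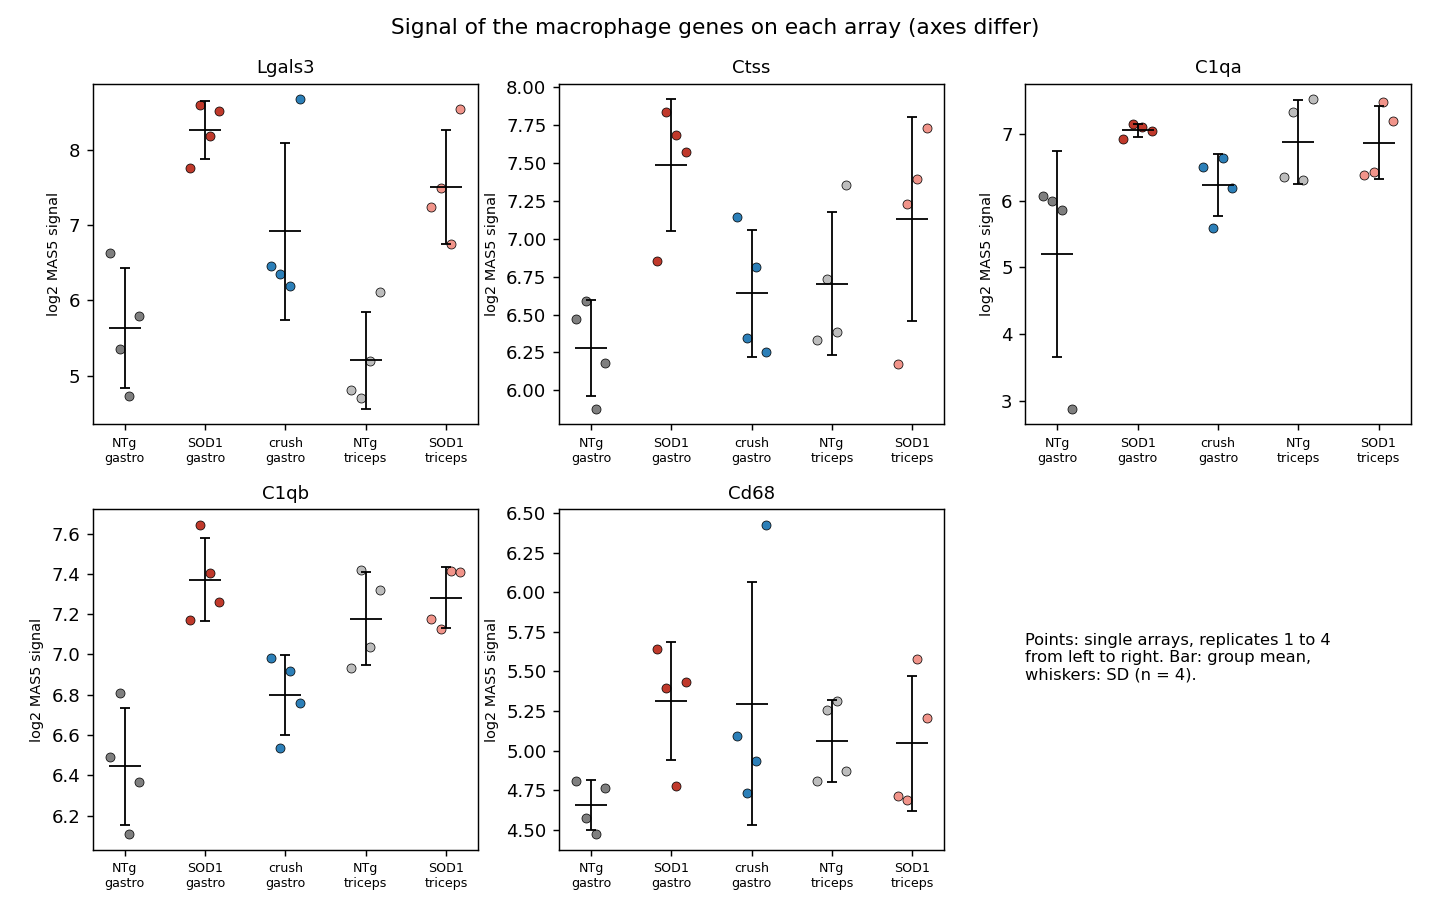
Log2 MAS5 signal of the 5 genes (vertical axes, which differ between panels) in the 5 groups, with 1 point per array, a bar for the mean and whiskers for the SD (n = 4). Crush replicate 4 lies far above the other crush arrays for Lgals3 (8.68) and Cd68 (6.43), and NTg gastrocnemius replicate 4 far below the others for C1qa (2.88).

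In gastrocnemius, SOD1 mice had more signal than NTg mice for Lgals3, Ctss, C1qa and C1qb. Lgals3 rose 6.24-fold, C1qa 3.62-fold, Ctss 2.31-fold and C1qb 1.90-fold. The fold of C1qa was 2.12 without NTg gastrocnemius replicate 4, and that of Ctss was then 2.26. All 4 passed the test (limma's moderated test with Benjamini-Hochberg adjustment over 7523 probe sets, adjusted p under 0.05), and their SOD1 arrays lay above every NTg array. Over all probe sets tested, 5.97% were called higher and 12.7% had SOD1 arrays that lay wholly above the NTg arrays. The median change over the 5 genes was 1.21 on the log2 scale, against -0.0015 over all probe sets tested. In whole muscle, more macrophages, more RNA of these genes in each macrophage and more RNA of them in other cells cannot be told apart.

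Lgals3 read 7.76, 8.60, 8.19 and 8.52 on the SOD1 gastrocnemius arrays (replicates 1 to 4 here and below) and 6.63, 5.36, 4.73 and 5.80 on the NTg arrays. The lowest SOD1 array lay above the highest NTg array. The change was 2.64 ± 0.50 (log2, SE), a fold of 6.24 with a 95% interval of 3.04 to 12.8 and an adjusted p of 0.00586 in limma's fit.

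Ctss read 6.86, 7.84, 7.69 and 7.57 in SOD1 gastrocnemius and 6.47, 6.59, 5.88 and 6.18 in NTg gastrocnemius. SOD1 replicate 1 was the lowest of its group and came close to the NTg arrays without overlapping them. The change was 1.21 ± 0.31 (log2, SE; limma's adjusted p = 0.0181). This call was lost without SOD1 gastrocnemius replicate 2, 3 or 4 or NTg gastrocnemius replicate 3 or 4, where limma's adjusted p ran from 0.0509 to 0.0648.

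C1qa read 6.92, 7.15, 7.10 and 7.05 in SOD1 gastrocnemius, the narrowest group of any of the genes. NTg gastrocnemius read 6.07, 5.99, 5.86 and 2.88, of which replicate 4 lay far below the others. The change was 1.85 ± 0.51 (log2, SE; limma's adjusted p = 0.0256), and without that array it was 1.08, with an adjusted p of 0.0505. Its call was also lost without SOD1 gastrocnemius replicate 2, 3 or 4, with adjusted p of 0.0633, 0.0588 and 0.0780 in limma's fit.

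C1qb, by its brightest probe set (1434366_x_at), read 7.17, 7.64, 7.41 and 7.26 in SOD1 gastrocnemius and 6.49, 6.81, 6.11 and 6.36 in NTg gastrocnemius. The groups did not overlap. The change of 0.93 ± 0.16 (log2, SE) was a fold of 1.90 with a 95% interval of 1.51 to 2.39 and an adjusted p of 0.00427 in limma's fit. Lgals3 and C1qb passed the test whichever array was left out.

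Cd68 fell below the filter on low signal, which left out the 30% of probe sets with the lowest mean over all arrays, and was tested only in a fit without that filter. It read 5.64, 5.39, 4.78 and 5.43 in SOD1 gastrocnemius and 4.81, 4.57, 4.47 and 4.76 in NTg gastrocnemius. SOD1 replicate 3 lay among the NTg arrays, and the other 3 lay above them. The difference of 0.66 ± 0.30 (log2, SE) did not pass limma's test (adjusted p = 0.174). Of the alternative fits it passed only with array weights (0.59, limma's adjusted p = 0.0460).

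**Figure D2:**
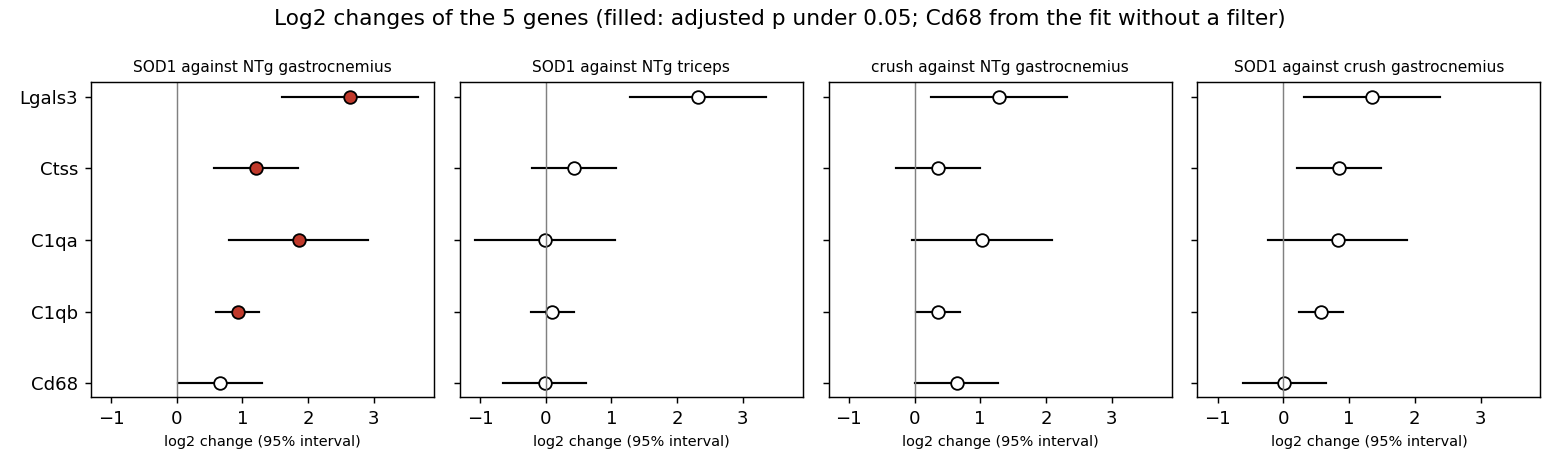
Log2 change (points) with its 95% interval (lines) of the 5 genes in 4 comparisons, with genes that passed the test filled; Cd68 was tested in the fit without a filter. Lgals3, Ctss, C1qa and C1qb are filled in SOD1 against NTg gastrocnemius, and no gene is filled in the other 3 comparisons, although the interval of Lgals3 in triceps starts at 1.28.

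Genes that work with these 5 were counted from lists of the same pathways. Of 8 other complement genes tested, 2 rose in SOD1 gastrocnemius: C1qc, the last C1q subunit, by 0.83 (log2, limma's adjusted p = 0.0476, but 0.0534 in the fit without a filter), and Serping1, the inhibitor of the C1 proteases, by 0.60 (adjusted p = 0.0271, and 0.0304 without a filter). The list's median change was 0.12. C1qc read 6.34, 6.96, 6.68 and 6.77 in SOD1 and 6.12, 6.20, 5.49 and 5.60 in NTg gastrocnemius, so that its groups did not overlap either.

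Of 12 other cathepsins and cystatins tested, 2 rose in SOD1 gastrocnemius. Cstb, the cytosolic cathepsin inhibitor cystatin B, rose by 1.35 (log2, limma's adjusted p = 0.00461) and Ctsd, the lysosomal aspartic protease, by 0.53 (adjusted p = 0.0242). The other 10 did not pass, and the median change was 0.27. Of 8 lysosomal membrane proteins only Lamp2 rose, by 0.53 (limma's adjusted p = 0.0384), with a list median of -0.047. Of 4 other galectins Lgals1, which encodes galectin-1, rose by 0.66 (limma's adjusted p = 0.00876), with a list median of 0.30.

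Class II antigen processing, the step that cathepsin S serves, had the largest list median of those named here, 1.31 over 4 genes tested. The class II chains H2-Aa and H2-Eb1 rose by 1.75 and 1.56 and the invariant chain Cd74 by 1.06 on the log2 scale (limma's adjusted p = 0.00667, 0.00586 and 0.0372). The remaining gene tested, H2-Ab1, changed by 0.53 and did not pass (limma's adjusted p = 0.192). The 3 genes below the filter, H2-DMa, H2-DMb2 and Ciita, changed by 0.28, -0.57 and 0.30, and none was called without it. H2-Aa and C1qb were read by probe sets whose names end in x_at, which marks probes that may also match related transcripts.

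Of 38 other macrophage markers 14 were measured, and 6 of these passed the filter on low signal. In SOD1 gastrocnemius 2 of the 6 rose, the macrophage growth factor receptor Csf1r by 0.90 (log2, limma's adjusted p = 0.0185) and Adgre1, an adhesion receptor used to stain mouse macrophages, by 0.60 (adjusted p = 0.0339). All 6 had a positive change, with a median of 0.65. Among the 8 below the filter, 4 (Sirpa, Tyrobp, Ptprc and Cd52) were called higher in the fit without it. That fit called 981 of all probe sets in this comparison, and these 4 genes were picked out after their values were seen. Whether their RNA came from macrophages or from other cells was not tested. The summed linear signal of the 14 ran from 1509 to 2164 in SOD1 gastrocnemius and from 880 to 1146 in NTg gastrocnemius, without overlap. Among signals that draw or sustain macrophages, 3 of 6 tested rose: the chemokines Ccl8 and Ccl9 by 0.81 and 0.68, and Mif, a cytokine made by many cell types, by 0.48 (limma's adjusted p = 0.0473, 0.0482 and 0.0458). All 3 calls were lost in the fit without a filter, with adjusted p of 0.0532, 0.0545 and 0.0530.

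None of 8 fibroblast, 8 endothelial, 4 Schwann cell and nerve, 3 satellite cell or 12 muscle fibre markers tested was called by limma in SOD1 against NTg gastrocnemius, where 12% of all probe sets were called in either direction. At an unadjusted p under 0.05 there were 2 fibroblast, 1 Schwann cell and 1 satellite cell marker, no endothelial or fibre marker, and 29.5% of all probe sets. Fibroblast markers were all 8 above 0, with a median of 0.30 and with Lum, a collagen-binding proteoglycan, at 0.77 (limma's adjusted p = 0.0609). Their summed linear signal ran from 6036 to 7410 in SOD1 and from 4470 to 6980 in NTg gastrocnemius. Of the lymphocyte and granulocyte markers only S100a8, a granulocyte gene, was measured, below the filter, and it read 4.87, 6.19, 5.66 and 6.89 in SOD1 against 2.96, 4.34, 4.13 and 4.05 in NTg gastrocnemius (log2 difference 2.03, limma's adjusted p = 0.0946 in the fit without a filter). The part of these cells in the results was not tested.

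**Figure D3:**
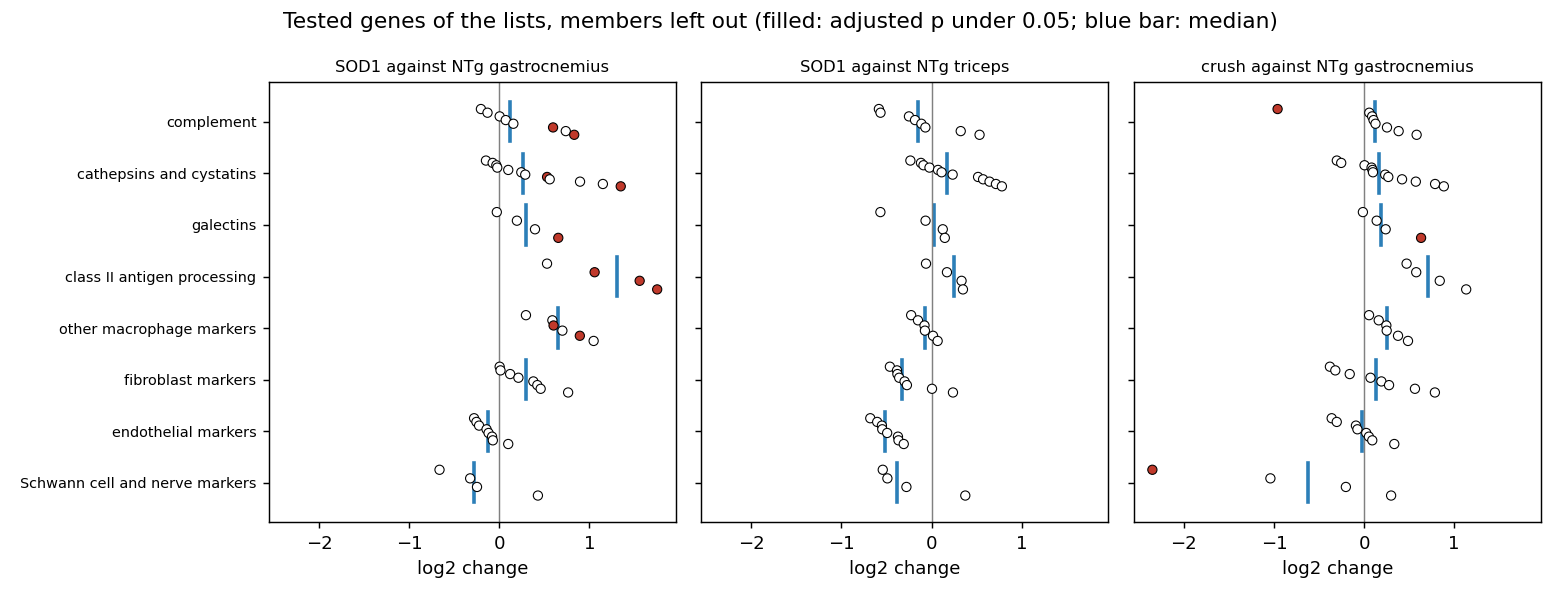
Log2 change of the tested genes (points, filled where the adjusted p was under 0.05) and the median (blue bar) of 8 gene lists without the 5 genes themselves, in SOD1 against NTg gastrocnemius, SOD1 against NTg triceps and crush against NTg gastrocnemius. In SOD1 gastrocnemius the class II list (median 1.31) and the other macrophage markers (0.65) lie to the right, and in SOD1 triceps no gene of these lists is filled.

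In triceps no gene of the 5 passed the test between SOD1 and NTg mice, and Lgals3, with the largest difference, missed the threshold narrowly. Its level was 4.97-fold higher in SOD1 triceps (95% interval 2.42 to 10.2, limma's adjusted p = 0.0571). None of the 4 tested genes was called, 0.239% of all probe sets were called higher, and at an unadjusted p under 0.05 there were 1 of the 5 genes and 15.2% of all probe sets, a like share. The median change over the 5 genes was 0.10, against 0.013 over all probe sets tested.

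Lgals3 read 7.25, 7.50, 6.76 and 8.55 in SOD1 triceps and 4.80, 4.70, 5.20 and 6.11 in NTg triceps. The groups did not overlap, as was so for 4.69% of probe sets. The change was 2.31 ± 0.50 (log2, SE). It passed limma's test in fits without SOD1 triceps replicate 3 (adjusted p = 0.0442), NTg triceps replicate 4 (0.0388) or crush replicate 4 (0.00274), with array weights (0.0194) and with the compared arrays only (0.0364). Crush replicate 4 belongs to neither group and entered the fit only through the shared estimate of the spread. Fits with 1 array left out called 3 to 167 probe sets in this comparison, and the other settings 7 to 104.

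Ctss read 6.17, 7.23, 7.39 and 7.73 in SOD1 triceps and 6.33, 6.74, 6.39 and 7.36 in NTg triceps. SOD1 replicate 1 was the lowest of all 8 arrays and NTg replicate 4 lay among the SOD1 arrays. The difference was 0.43 ± 0.31 (log2, SE) with a 95% interval of -0.21 to 1.07 (limma's adjusted p = 0.495).

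The C1q genes overlapped between genotypes. C1qa read 6.39, 6.43, 7.48 and 7.19 in SOD1 triceps and 6.36, 7.33, 6.31 and 7.52 in NTg triceps, with arrays at both ends of the range in each group. C1qb read 7.17, 7.13, 7.41 and 7.41 in SOD1 triceps and 6.93, 7.42, 7.04 and 7.32 in NTg triceps. The C1qb difference was 0.10 (log2, 95% interval -0.23 to 0.44, limma's adjusted p = 0.763). The C1qa difference was -0.0078, with a wider interval of -1.07 to 1.06 (limma's adjusted p = 0.994).

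Cd68 read 4.71, 4.69, 5.58 and 5.21 in SOD1 triceps and 4.81, 5.26, 5.31 and 4.87 in NTg triceps. The groups overlapped throughout, with a difference of -0.016 ± 0.30 (log2, SE) in the fit without a filter. The sign of so small a difference turned with several settings.

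The related genes did not pass in triceps either. Limma called none of the 8 complement, 12 cathepsin and cystatin, 4 galectin, 8 lysosomal membrane, 4 class II or 6 other macrophage genes. At an unadjusted p under 0.05 there were 2, 3, 0, 1, 0 and 0 of them in that order. The same held for 1145 of all probe sets (15.2%). Medians were -0.15, 0.17, 0.029, 0.049, 0.25 and -0.076 in that order. Ctsl, the lysosomal protease cathepsin L, had the largest change of its list at 0.78 (limma's adjusted p = 0.161), and Csf1r changed by -0.074. All 12 muscle fibre markers and all 8 endothelial markers were lower in SOD1 triceps, with medians of -0.67 and -0.52 and none called. Their summed linear signals ran from 26378 to 54189 (fibre) and 589 to 828 (endothelial) in SOD1 triceps and from 40190 to 85622 and 933 to 1057 in NTg triceps. At an unadjusted p under 0.05 in limma's fit were 6 of the 12 fibre and 2 of the 8 endothelial markers. The part of this shift in the triceps values was not tested.

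The difference between the SOD1 changes of the 2 muscles was tested directly. No probe set was called (0% of 7523), and at an unadjusted p under 0.05 there were 9.44% of all probe sets and 2 of the 5 genes. For C1qb the change in gastrocnemius exceeded that in triceps by 0.82 ± 0.22 (log2, SE; 95% interval 0.35 to 1.29, limma's adjusted p = 0.386). For C1qa the excess was 1.86 ± 0.72 (limma's adjusted p = 0.485) and for Ctss 0.78 ± 0.43 (adjusted p = 0.587). Without NTg gastrocnemius replicate 4 the C1qa excess was 1.09. Lgals3 had the smallest excess, 0.33, with an interval of -1.14 to 1.79 that does not show that the muscles act alike. A difference between the muscles in the SOD1 change passed for none of the 5 genes. In the same contrast all 12 muscle fibre markers (median 0.74), all 8 fibroblast markers (0.48) and all 8 endothelial markers (0.43) tested lay above 0, with none called, and their part in the values of these genes was not tested.

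The uninjured muscles of NTg mice differed in C1qb. It was 1.66-fold lower in gastrocnemius than in triceps (-0.73 ± 0.16, log2, SE; limma's adjusted p = 0.0226), a direction in which 0.199% of all probe sets were called. The NTg gastrocnemius arrays, at 6.11 to 6.81, lay below the NTg triceps arrays, at 6.93 to 7.42. C1qa was also lower on every gastrocnemius array, as were 5.65% of probe sets, but did not pass (-1.68 ± 0.51, limma's adjusted p = 0.101). Without NTg gastrocnemius replicate 4 the C1qa difference was -0.90. The C1qb call was lost without NTg gastrocnemius replicate 1, 3 or 4 or NTg triceps replicate 2 or 4, where limma's adjusted p ran from 0.0713 to 0.107. The last of these is the array whose labels disagree. It was also lost in a fit of the compared arrays only (adjusted p = 0.0617) and with the mean of the 3 probe sets (0.0666).

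Ctss (-0.42) and Cd68 (-0.41) were lower and Lgals3 (0.43) higher in NTg gastrocnemius than in triceps on the log2 scale, none past the test. The 4 class II genes tested were all lower in NTg gastrocnemius, with a median of -0.74. So were 5 of the 6 other macrophage markers (median -0.43), and none of either list was called. Below the filter, H2-DMa was also lower in NTg gastrocnemius than in triceps (means 4.58 and 4.83). H2-DMb2 (5.48 and 4.91) and Ciita (4.24 and 3.97) were higher there, and none of these was called in the fit without it. Summed linear signals of the 14 other macrophage markers measured ran from 880 to 1146 in NTg gastrocnemius and from 1222 to 1998 in NTg triceps. Mbp, the myelin basic protein of Schwann cells, was higher in NTg gastrocnemius by 2.60 (limma, called, in a direction with 1.52% called).

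Between the muscles of SOD1 mice none of the 4 tested genes was called, against 4.84% of all probe sets. The differences, gastrocnemius minus triceps, were 0.76 for Lgals3, 0.36 for Ctss, 0.18 for C1qa and 0.089 for C1qb on the log2 scale, none above the larger SD of the groups, and none of the 5 genes had an unadjusted p under 0.05 in limma's fit. Among the other macrophage markers 1 of 6 passed, Laptm5, a lysosomal protein of blood cells, which was higher in gastrocnemius by 0.81 (limma's adjusted p = 0.0484, but 0.0559 in the fit without a filter). All 12 muscle fibre markers (median 0.84) and all 8 endothelial markers (0.31) were higher in gastrocnemius, with none called. At an unadjusted p under 0.05 were 10 fibre and 3 endothelial markers, and 22% of all probe sets. The Schwann cell markers Mbp and Pmp22 were called higher, by 2.48 and 1.31, in a direction with 1.85% called. The part of these cells in the values was not tested.

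After nerve crush, the mean of each of the 5 genes lay between those of NTg and SOD1 gastrocnemius. None of the 4 tested genes was called against NTg, 1.08% of all probe sets were called higher, and at an unadjusted p under 0.05 there were 3 of the 5 genes (Lgals3, C1qb and Cd68) and 20.7% of all probe sets. Without crush replicate 4 only C1qb was left of the 3, with 21.5% of all probe sets. The median change over the 5 genes was 0.64, and 0.49 without that array, against 0.017 over all probe sets tested. No gene had crush arrays that lay wholly above the NTg arrays, as 6.94% of probe sets did.

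Lgals3 read 6.46, 6.35, 6.19 and 8.68 in crush. Replicate 4 reached the level of the SOD1 arrays, and the other 3 lay below the highest NTg array (6.63). The change was 1.29 ± 0.50 (log2, SE; limma's adjusted p = 0.143). Without crush replicate 4 the crush mean was 6.33 ± 0.14 (SD, n = 3) and the change 0.70 (limma's adjusted p = 0.353).

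Cd68 was also highest on that array, at 5.09, 4.73, 4.94 and 6.43 in crush. Its difference from NTg was 0.64 (log2) with all 4 arrays and 0.27 without replicate 4. There S100a8, the granulocyte gene, was high too, at 8.62 against 4.90, 3.03 and 4.76 on the others. Its part in these values was not tested.

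Ctss and the C1q genes were not highest on crush replicate 4. Ctss read 7.15, 6.34, 6.82 and 6.25 in crush, where replicate 4 was the lowest, with a change of 0.36 ± 0.31 (log2, SE; limma's adjusted p = 0.549). C1qa read 6.50, 5.60, 6.64 and 6.19, with a change of 1.03 ± 0.51 (limma's adjusted p = 0.257) that was 0.26 without NTg gastrocnemius replicate 4. C1qb read 6.98, 6.54, 6.92 and 6.76, of which replicates 2 and 4 lay within the range of the NTg arrays and the others above it. Its change was 0.35 ± 0.16 (limma's adjusted p = 0.208).

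Of the related genes, Lgals1 was called higher in crush, by 0.63 (log2, limma's adjusted p = 0.0171). Clu, which encodes the complement inhibitor clusterin, was called lower, by 0.96 on the log2 scale (limma's adjusted p = 0.00671), a direction in which 3.06% of probe sets were called. The 4 class II genes tested all had positive changes with a median of 0.71 and none called. H2-Aa had the largest, 1.13 (limma's adjusted p = 0.0693). The 3 class II genes below the filter, H2-DMa, H2-DMb2 and Ciita, changed by -0.94, -1.34 and -0.59, and none was called without it. The 6 other macrophage markers were all above 0 with a median of 0.25 and none called, as were all 12 muscle fibre markers, with a median of 0.25. Mbp dropped by 2.35 (limma's adjusted p = 0.0163), and its crush arrays read 8.42, 5.65, 6.97 and 5.49, against 8.72 to 9.23 in NTg gastrocnemius. The summed linear signal of the 6 Schwann cell and nerve markers measured ran from 396 to 1219 in crush and from 1158 to 1558 in NTg gastrocnemius.

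SOD1 gastrocnemius was also set directly against crush. No probe set was called in limma's fit (0% of 7523), and at an unadjusted p under 0.05 there were 3 of the 5 genes and 12.5% of all probe sets (3 and 25.1% without crush replicate 4). C1qa and C1qb had SOD1 arrays that lay wholly above the crush arrays, as 2.87% of probe sets did. C1qb was higher in SOD1 by 0.57 ± 0.16 (log2, SE; limma's adjusted p = 0.188) and C1qa by 0.82 ± 0.51 (adjusted p = 0.520). Ctss was higher by 0.85 ± 0.31 (limma's adjusted p = 0.265). Lgals3 was higher by 1.35 ± 0.50 (limma's adjusted p = 0.269), and without crush replicate 4 by 1.94, which passed the test (adjusted p = 0.0104). Fits with 1 array left out called 0 to 604 probe sets in this comparison. Cd68 differed by 0.015, with an interval of -0.62 to 0.65, and by 0.39 without crush replicate 4 (limma's adjusted p = 0.389, without a filter). Both comparisons of gastrocnemius with NTg share the NTg arrays, so their changes are not independent. The same NTg gastrocnemius arrays enter the comparison of the NTg muscles and that of the SOD1 changes of the 2 muscles. Those results are therefore not independent of these either.

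C1qb is the only gene of the 5 with more than 1 probe set, and they did not give 1 size. In SOD1 against NTg gastrocnemius the log2 change was 0.93 by 1434366_x_at, 1.35 by 1437726_x_at (limma's adjusted p = 0.00296) and 0.85 by 1417063_at, which did not pass (adjusted p = 0.0733). All 3 had SOD1 arrays wholly above the NTg arrays. In triceps they gave 0.10, 0.30 and 0.012, and in crush against NTg 0.35, 0.46 and 0.26, with none called. Gastrocnemius of NTg mice was lower than triceps by all 3, with changes of -0.73, -0.97 and -0.55, of which 1417063_at did not pass (limma's adjusted p = 0.447). This last probe set had the widest triceps groups, 6.48 ± 0.60 in NTg and 6.50 ± 0.72 in SOD1 (SD, n = 4).

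**Figure D4:**
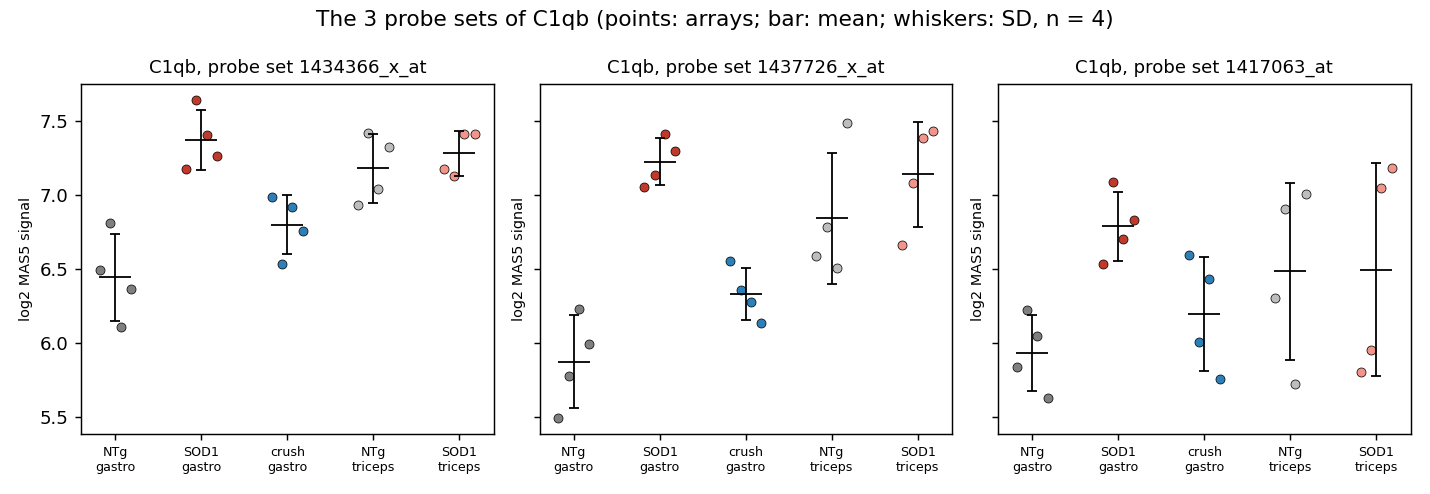
Log2 MAS5 signal of the 3 probe sets of C1qb (panels, shared vertical axis) in the 5 groups, with points for arrays, a bar for the mean and whiskers for the SD (n = 4). SOD1 gastrocnemius lies above NTg gastrocnemius in each panel, and the triceps groups of 1417063_at are the widest (SD 0.60 and 0.72).

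Over the 20 arrays the genes followed each other to different degrees. Ctss and C1qb had the highest Pearson's r by their main probe sets, 0.80, and 0.71 once each group's mean was subtracted. C1qa and C1qb had 0.76 and 0.47. Lgals3 had 0.60 with Ctss, 0.46 with C1qb and 0.30 with C1qa, and 0.25, 0.18 and 0.022 after the group means were subtracted. Crush replicate 4 lowered several of these values: without it, Lgals3 had 0.74 with Ctss, 0.55 with C1qb and 0.34 with C1qa. Cd68 had 0.21 with Ctss and 0.35 with C1qb on all arrays, and 0.52 and 0.63 without that array, while its r with Lgals3 went from 0.50 to 0.39. These are descriptions over arrays that share groups, with no test.

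**Figure D5:**
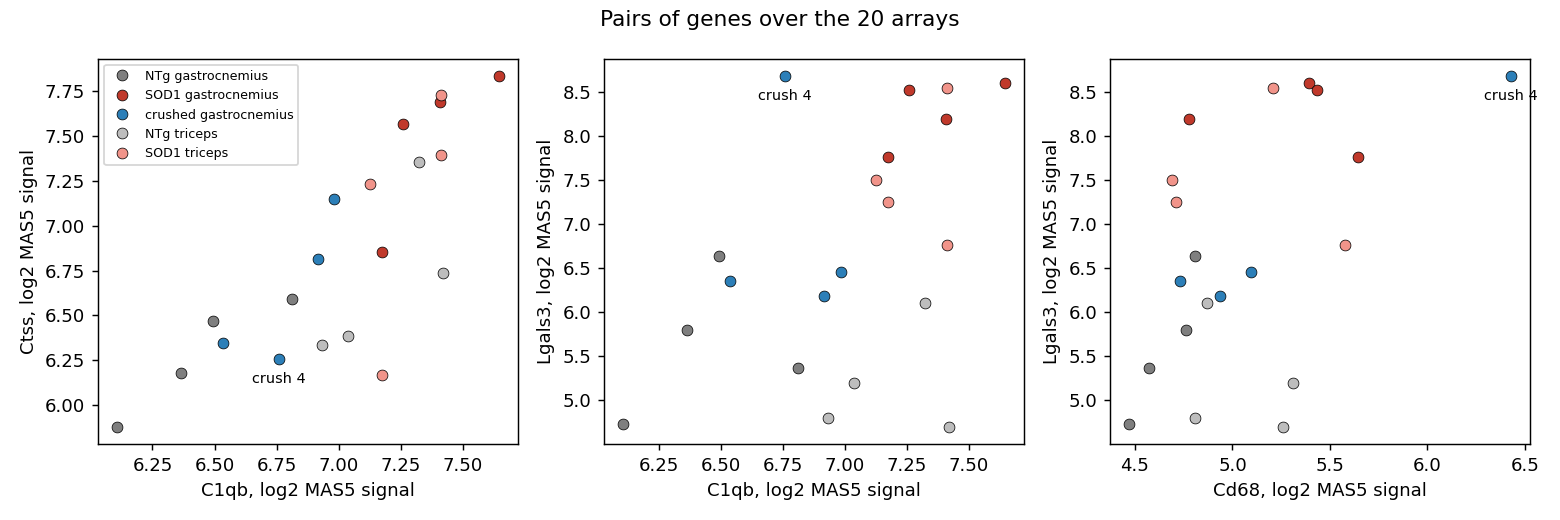
Log2 MAS5 signals of Ctss against C1qb, Lgals3 against C1qb and Lgals3 against Cd68 on the 20 arrays, coloured by group, with crush replicate 4 marked. Ctss follows C1qb over the arrays (r = 0.80), and Lgals3 follows C1qb less closely (r = 0.46, and 0.55 without crush replicate 4).

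The genes whose signal followed each of the 5 most closely, by Pearson's r over the 20 arrays, differed between them. For Ctss they were 3 class II genes: Cd74 with 0.94, H2-Aa with 0.91 and H2-Eb1 with 0.90. Subtracting the group means left 0.95, 0.92 and 0.87, so that single arrays high in Ctss were high in these genes too. For C1qb they were Grn, the precursor of granulin (0.89), Csf1r (0.87) and H2-Aa (0.86). For C1qa they were F13a1, a subunit of clotting factor XIII (0.85), Lyz1, a lysozyme (0.84), and Grn (0.81). The probe sets of Lyz1 and Grn also have names that end in x_at.

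Lgals3 had other neighbours, Cpne2 with 0.96, Aebp2 with 0.94 and Sh3d19 with 0.94. Cpne2, a member of the copine family, read 7.71, 8.87, 8.79 and 9.27 in SOD1 gastrocnemius and 5.16, 4.08, 1.39 and 4.20 in NTg gastrocnemius. In crush it read 5.79, 5.73, 5.12 and 9.27, with replicate 4 as high as the SOD1 arrays, as for Lgals3. It rose by 4.95 in SOD1 gastrocnemius and 4.78 in SOD1 triceps (log2, limma's adjusted p = 0.00385 and 0.0168). The NTg values lie near the low end of the MAS5 scale, where a log2 change is uncertain. For Cd68 the closest were Psmd11 (0.78), Tmem214 (0.78) and Capns1 (0.76). Without crush replicate 4, Psmd11 had 0.66, Tmem214 0.68 and Capns1 0.80.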

How the data were processed

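RNA was isolated with Trizol and RNeasy columns and labelled from 4 ug, per the labels' protocols. The deposited values are on a log2 scale, as their range (-3.66 to 13.3) shows, and the authors computed them with MAS5, per the submitters' processing notes. The target level and any filter were not given there. They were used without further scaling. Platform symbols named 9874 of 10748 probe sets, 387 had several symbols and 487 none, and 9862 matched RefSeq (GRCm38.p6) by gene ID.

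The 30% of probe sets with the lowest mean (log2 under 5.88) were set aside, leaving 7523 (4832 genes). A gene's main probe set was its brightest. A model of 5 group means was fitted to 20 arrays with limma 3.58.1 in R 4.3.3 (eBayes with trend, 15 residual degrees of freedom), with Benjamini-Hochberg adjustment over all probe sets tested in each comparison. An adjusted p under 0.05 was called. The fit was tested on simulated data. With 4 arrays a group, p-values measure the spread between arrays, and the sources do not state how mice relate to replicate numbers.

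The genes and lists were chosen with earlier results of these data known. List genes were named by rule: called genes, or else the largest change, and the 3 genes of highest r. S100a8 and the 4 called genes under the filter were chosen after their values were seen. Of the blood cell markers 1 was measured, under the filter. Alternatives tried were quantile normalization, the 75th percentile subtracted, a floor at log2 of 5, no filter or a 60% filter, compared arrays only, a replicate block, weights per array, a fit without the trend or with a robust prior, the mean of a gene's probe sets, and leaving out each array. Figures were drawn with matplotlib 3.10.9.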

Additional observations from a re-analysis of the deposited data

Results flagged for a closer look

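Of 35 groups of 4 arrays checked (7 probe sets in 5 groups), 2 held an array whose gap to the nearest of the others exceeded Dixon's critical share of the group's range, and chance alone flags about 1 in 20 groups. C1qa read 2.88 on NTg gastrocnemius replicate 4, with the nearest array at 5.86 and a gap of 0.934 of the range. Without it the SOD1 change of C1qa in gastrocnemius was 1.08 in place of 1.85 (log2). Lgals3 read 8.68 on crush replicate 4, with the nearest array at 6.46 and a gap of 0.892 of the range. Without it the crush change of Lgals3 was 0.70 in place of 1.29.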

How the results depend on the processing

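The number of the 4 tested genes called is given under 30 alternatives in each comparison; the 60% filter gave no value, since all 5 genes fall below it. In SOD1 against NTg gastrocnemius it was 4, and 2 to 4 with 1 array left out. In SOD1 against NTg triceps it was 0, but 1 (Lgals3) with the compared arrays only (adjusted p = 0.0364), array weights (0.0194) or the replicate block (0.00705), and 0 to 1 with 1 array left out. In crush against NTg it was 0, but 1 (Lgals3, adjusted p = 0.0495) with the replicate block. In SOD1 against crush it was 0, but 3 (Lgals3, Ctss, C1qb) with array weights, and 0 to 1 with 1 array left out. Between NTg muscles it was 1, but 0 with the compared arrays only or the mean of the probe sets, and 0 to 1 with 1 array left out. The difference of SOD1 changes and the SOD1 muscles gave 0 throughout. Replicate numbers were not taken as pairs, since in no comparison did every pair exceed 0.1, a limit that cannot exclude shared mice. Same-numbered deviations correlated at -0.17 to 0.030 between SOD1 and NTg gastrocnemius, -0.13 to 0.075 between crush and NTg and 0.038 to 0.16 in triceps. They correlated at 0.055 to 0.45 between SOD1 gastrocnemius and crush, -0.10 to 0.62 between the SOD1 muscles and -0.087 to 0.24 between the NTg muscles. Arrays closest to their own number were 3 of 4 between SOD1 gastrocnemius and crush. They were 2 of 4 in triceps and between the muscles of each genotype. The counts were 1 between crush and NTg and 0 between SOD1 and NTg gastrocnemius. Tests between muscles took the arrays as independent. Each limma p-value printed here is adjusted over the probe sets of its own fit, and counts at an unadjusted p are named as such. The cause of these changes was not tested.

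Reversed values were near 0. Cd68 in SOD1 against NTg triceps was 0.011 under quantile normalization and 0.053 with the floor, and -0.19 to 0.10 with 1 array left out. Cd68 in SOD1 against crush was -0.013 under quantile normalization, -0.0080 after subtracting the 75th percentile and -0.013 with the floor, and -0.17 to 0.39 with 1 array left out. With 1 array left out, C1qa in triceps ran from -0.21 to 0.21 and C1qb between SOD1 muscles from -0.0019 to 0.15.

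The count of all probe sets called moved by more than 1.5 times, or from 0 to more, in every comparison under some of the alternatives. In SOD1 against NTg gastrocnemius it was 902, with 594 to 2512 over the settings and 178 to 1341 with 1 array left out. In triceps it was 18, with 7 to 104 and 3 to 167, and in crush against NTg 311, with 209 to 1245 and 94 to 456. Between NTg muscles it was 129, with 53 to 360 and 30 to 327, and between SOD1 muscles 364, with 54 to 1249 and 45 to 828. It was 0 in SOD1 against crush, with 0 to 1282 and 0 to 604, and 0 in the difference of SOD1 changes, with 0 to 18 and 0 to 34.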
